A study of Mus musculus with 8 samples.

Results

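Methylation was examined in the H19-Igf2 and Kcnq1ot1-Cdkn1c domains, neighbouring imprinted gene clusters on mouse distal chromosome 7, in hematopoietic stem cells (HSCs). The genes covered were H19, Igf2, Ins2, Kcnq1, Kcnq1ot1, Cdkn1c and Phlda2. A CpG belonged to the set when it lay within a gene or within 10000 bp of it on chromosome 7 of the mm10 build, and when at least 3 mice of each group had 10 or more reads there after both strands were added. Of 1871 such CpGs listed for any mouse, 632 met the coverage rule, against 1278034 CpGs on all autosomes by the same rule. The H19-Igf2-Ins2 cluster held 207 of them, and the Kcnq1-Kcnq1ot1-Cdkn1c-Phlda2 cluster held 425. All 8 mice reached 10 reads at 487 of the 632, and at the other 145 at least 1 mouse was missing.

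The cells came from 4 Atg12 knockout mice (loxP-flanked Atg12 with Mx1-Cre) and 4 control mice, all C57BL/6, with 1 library from each mouse. The design text describes the controls as carrying the same loxP-flanked Atg12 without Cre, while their genotype label reads WT. Both groups received poly(I:C) at 4 weeks of age, which triggers the interferon response that switches Mx1-Cre on, and stem cells were sorted from bone marrow 2 to 3 months later as cells of the Lin-, c-Kit+ and Sca-1+ fraction that were CD150+ and lacked CD48 and Flk2. Atg12 encodes a ubiquitin-like protein needed for autophagosome formation. Mx1-Cre is not restricted to stem cells, so the deletion can be present in other blood cells and in other interferon-responsive tissues as well. Neither the sorted cell type nor the deletion of Atg12 was checked in these methylation data.

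Imprinted genes are expressed from only the maternal or only the paternal chromosome, and the choice is set by DNA methylation laid down in the egg or the sperm at a control region. The control region upstream of H19 is methylated on the paternal chromosome. On the unmethylated maternal chromosome the insulator protein CTCF binds it and keeps distant enhancers from Igf2, so that H19 is transcribed from the maternal chromosome and Igf2 from the paternal one. The control region of the Kcnq1 cluster lies at the start of Kcnq1ot1 and is methylated on the maternal chromosome. On the paternal chromosome it stays unmethylated, Kcnq1ot1 is transcribed, and Cdkn1c and Phlda2 are silenced. In mouse HSCs, the H19-Igf2 region and Cdkn1c, which encodes the cell-cycle inhibitor p57, are known for their part in keeping the cells quiescent. Because the mice were inbred and the libraries do not separate the parental chromosomes, each level below is the share of methylated reads over both chromosomes and all sorted cells. A change on either chromosome and a change in a fraction of cells cannot be told apart.

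In enhanced reduced representation bisulfite sequencing, CpG-rich restriction fragments are treated with bisulfite, so that a cytosine without methylation is read as T and a methylated one as C. The authors' tables listed 2038266 to 3366162 cytosines in each mouse, with a median coverage of 30 to 138 reads. At the 487 CpGs of the domains with 10 or more reads in all 8 mice, the median depth was 206 to 278 reads. Of the 632 CpGs, 556 to 627 reached 10 reads in a given mouse. Y-chromosome cytosines made up 7.90 to 9.01 of every 10000 listed in knockouts and 1.15 to 1.83 in controls, while the X chromosome held 1.83 to 1.93% in knockouts and 2.42 to 2.54% in controls. The sex of the mice is not in the labels, and genotype cannot be told apart from this difference in sex-chromosome content in any comparison below. Reads carry no molecular identifiers and are not independent molecules, so read numbers overstate the precision of a level. Knockout 25 and control 34 had the lowest levels on the domains more often than other mice.

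The RefSeq annotation of build GRCm38.p6 places H19 on the minus strand at chr7:142575530-142578146, Igf2 on the minus strand at chr7:142650768-142666816 and Ins2 at chr7:142678656-142679726. In the second cluster, Kcnq1 lies at chr7:143106877-143427050, Kcnq1ot1 lies within it on the minus strand at chr7:143213111-143296547, Cdkn1c lies at chr7:143458339-143461059, and Phlda2 lies on the minus strand at chr7:143501545-143503145. The strand of H19 was taken from the microRNA hairpin that it hosts, and the strands of Ins2 and Cdkn1c (minus) and of Kcnq1 (plus) from their known orientation. Sites are called starts when they lie within 1000 bp of the annotated start, bodies when they lie in the rest of the gene, and flanks when they lie farther out up to 10000 bp. Exons, introns and untranslated regions were not separated. Coverage was uneven over the 7 genes. With flanks included, and with CpGs shared by overlapping genes counted for each, 18 CpGs were measured for H19, 189 for Igf2, 10 for Ins2, 219 for Kcnq1, 24 for Kcnq1ot1, 153 for Cdkn1c and 53 for Phlda2. The 10 CpGs of Ins2, which encodes insulin, were all in the stretch it shares with the upstream flank of Igf2, so that neither the gene nor its start was measured. No CpG within 1000 bp of the annotated start of Kcnq1ot1 met the rule outside its control region.

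A pair of promoter sequences shows what the assay did and did not reach. Each is the 250 bases before a RefSeq start in GRCm38.p6, written 5′ to 3′ on the minus strand, with the CpGs that met the coverage rule in capitals. The Igf2 sequence (chr7:142658805-142659054) precedes one of 4 RefSeq starts of the gene and the Kcnq1ot1 sequence (chr7:143296548-143296797) precedes its single listed start.
Igf2: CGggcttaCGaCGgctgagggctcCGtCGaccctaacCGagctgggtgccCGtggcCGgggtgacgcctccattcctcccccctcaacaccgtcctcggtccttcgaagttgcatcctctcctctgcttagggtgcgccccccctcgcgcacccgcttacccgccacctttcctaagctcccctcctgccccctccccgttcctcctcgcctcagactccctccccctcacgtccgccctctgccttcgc
Kcnq1ot1: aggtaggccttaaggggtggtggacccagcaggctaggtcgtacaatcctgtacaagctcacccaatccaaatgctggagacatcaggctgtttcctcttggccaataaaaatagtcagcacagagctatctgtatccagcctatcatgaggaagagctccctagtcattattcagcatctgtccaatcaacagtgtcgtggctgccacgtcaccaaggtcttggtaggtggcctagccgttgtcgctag
The Igf2 sequence holds 22 CpGs, of which 8 were measured, all toward its far end. The Kcnq1ot1 sequence holds 5 CpGs, and none was measured. The median over all RefSeq starts is 6 CpGs in a window of this length. On either strand, the letters GGNGGCAG, taken here as a core of the CTCF motif, occur once in the Igf2 sequence and not in the Kcnq1ot1 sequence. The letters TGCCGC, the core recognised by the imprint-protecting protein ZFP57, occur in neither. Among 32851 promoter windows of this length, 9.93% hold GGNGGCAG and 8.68% hold TGCCGC. A match in letters is a description and does not show that a protein binds.

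Levels in the domains were spread differently from the autosomes as a whole. Of the 632 CpGs, 254 had a mean level over the mice under 5%, 298 lay from 5 to 95% and 80 were over 95%. Levels of 30 to 70%, the range in which 1 methylated and 1 unmethylated parental chromosome would put a CpG, were found at 93 CpGs. These were 14.7% of the CpGs of the domains and 4.29% of all autosomal CpGs by the same rule. CpGs under 5% made up 40.2% of the domains and 56.2% of the autosomes, and CpGs over 95% made up 12.7% of the domains and 19.3% of the autosomes. Over the autosomal CpGs with 10 or more reads in all 8 mice, the mean level by mouse was 30.1 to 30.7% in knockouts and 29.6 to 30.9% in controls.

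**Figure D1:**
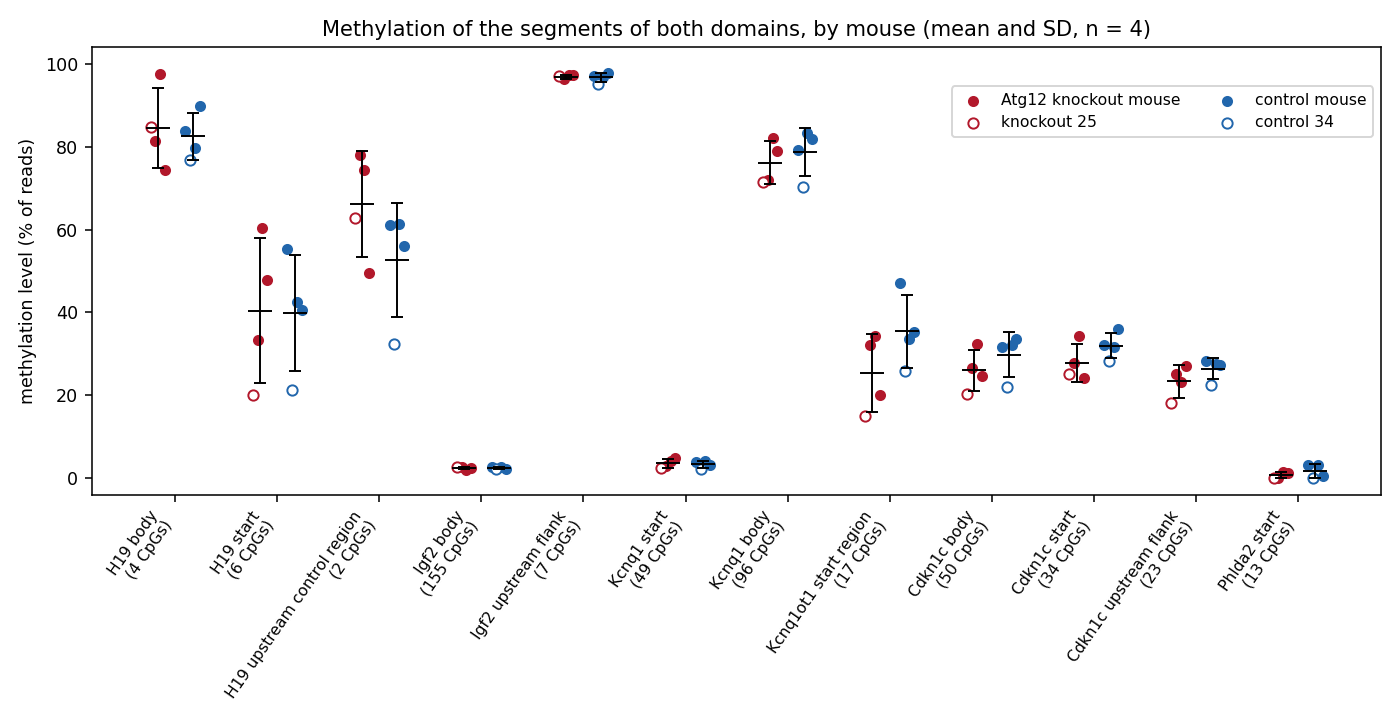
Methylation level (% of reads, vertical axis) of 12 segments of both domains, with 1 point for each mouse, knockouts left of controls, and the mean and SD of 4 mice as bars. Open points are knockout 25 and control 34. The groups overlap in every segment, and the H19 start, the H19 upstream control region and the Kcnq1ot1 start region spread widest.

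The H19 upstream control region was represented by few CpGs. In the stretch from 2000 to 4500 bp before the start, 4 CpGs met the rule, between chr7:142581142 and chr7:142581387, and 2 of these had 10 or more reads in all 8 mice. Over these 2 CpGs, with 150 to 619 reads summed in a mouse, the level was 62.8, 78.0, 74.3 and 49.4% in knockouts 25, 28, 45 and 46, against 61.0, 32.5, 61.3 and 55.9% in controls 1, 34, 36 and 37. Knockouts averaged 66.2 ± 12.9% and controls 52.7 ± 13.7% (SD, n = 4 each). The groups overlapped, and knockouts 25, 28 and 45 lay above every control while knockout 46 lay within their range and control 34 lay below every other mouse. The difference of 13.5 percentage points had a 95% interval of -11.8 to 45.5 points, and an exact two-sided permutation test gave p = 0.2. With 4 mice in each group there are 70 arrangements, and the test cannot go below 0.0286. The difference was 6.75 points without control 34, and 7.86 points without both knockout 25 and control 34.

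Single CpGs of the H19 control region were not alike in level or in spread between mice. The CpG at chr7:142581142 was at 53.3, 100, 100 and 60.5% in knockouts, on 26 to 171 reads, and at 55.2, 28.5, 69.8 and 41.6% in controls, on 143 to 368 reads. Knockouts 28 and 45 showed no unmethylated read there, whereas the other 6 mice ranged from 28.5 to 69.8%. Knockouts averaged 78.4 ± 25.1% and controls 48.8 ± 17.7% (SD, n = 4 each). A quasi-binomial logistic model of methylated and unmethylated reads, with its spread moderated over all 313039 CpGs tested by limma, gave p = 0.0201 and a Benjamini-Hochberg adjusted p of 0.755. At the neighbouring CpG at chr7:142581187, 45 bp away, knockouts averaged 60.2 ± 14.4% and controls 56.6 ± 13.7% (adjusted p = 0.962 in the same model). The CpG at chr7:142581230 had the highest mean of the region, with 81.2 ± 30.6% in the 3 knockouts that had reads and 64.5 ± 28.2% in 4 controls (adjusted p = 0.858 in the same model). Knockout 46 had no listed reads at it and was left out of that fit. The fourth CpG, at chr7:142581386, went the other way, on 13 to 103 reads. It stood at 64.0 ± 30.7% in the 3 knockouts other than knockout 45, which had none, and at 69.0 ± 27.6% in controls. Its adjusted p was 0.927 in the same model.

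H19, a maternally expressed long noncoding RNA, was measured at its start, in its body and in its downstream flank. Its start takes on paternal methylation after fertilization, in the wake of the control region. At the 6 start CpGs covered in every mouse, with 1627 to 3703 reads summed, the level was 20, 33.4, 60.5 and 47.8% in knockouts 25, 28, 45 and 46 and 55.3, 21.3, 42.5 and 40.5% in controls 1, 34, 36 and 37. Knockouts averaged 40.4 ± 17.6% and controls 39.9 ± 14.1% (SD, n = 4 each), and the difference of 0.515 points had an adjusted p of 0.988 in the same model over 1 kb windows and segments. Knockout 25 and control 34 were lowest, at 20 and 21.3%, and knockout 45 and control 1 were highest, so that mice of either genotype stood at both ends. The difference took either sign when a mouse was left out, at 7.33 points without knockout 25, -6.17 points without knockout 45 and -5.69 points without control 34. The 5 CpGs nearest the start, from 142578165 to 142578242, stood at 37.5 to 40.5% in knockouts and at 34.1 to 41.4% in controls on average. At the 4 CpGs of the H19 body, knockouts averaged 84.5 ± 9.64% and controls 82.5 ± 5.65%. In the downstream flank, 2 CpGs with only 40 to 129 reads summed in a mouse averaged 55.1 ± 13.4% in knockouts and 34.9 ± 19.9% in controls, and the groups overlapped. These 2 CpGs stood at 68.7 and 3.86% over the mice, and the difference of 20.2 points was 6.92 points when they were weighted equally and 11.9 points without control 34.

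**Figure D2:**
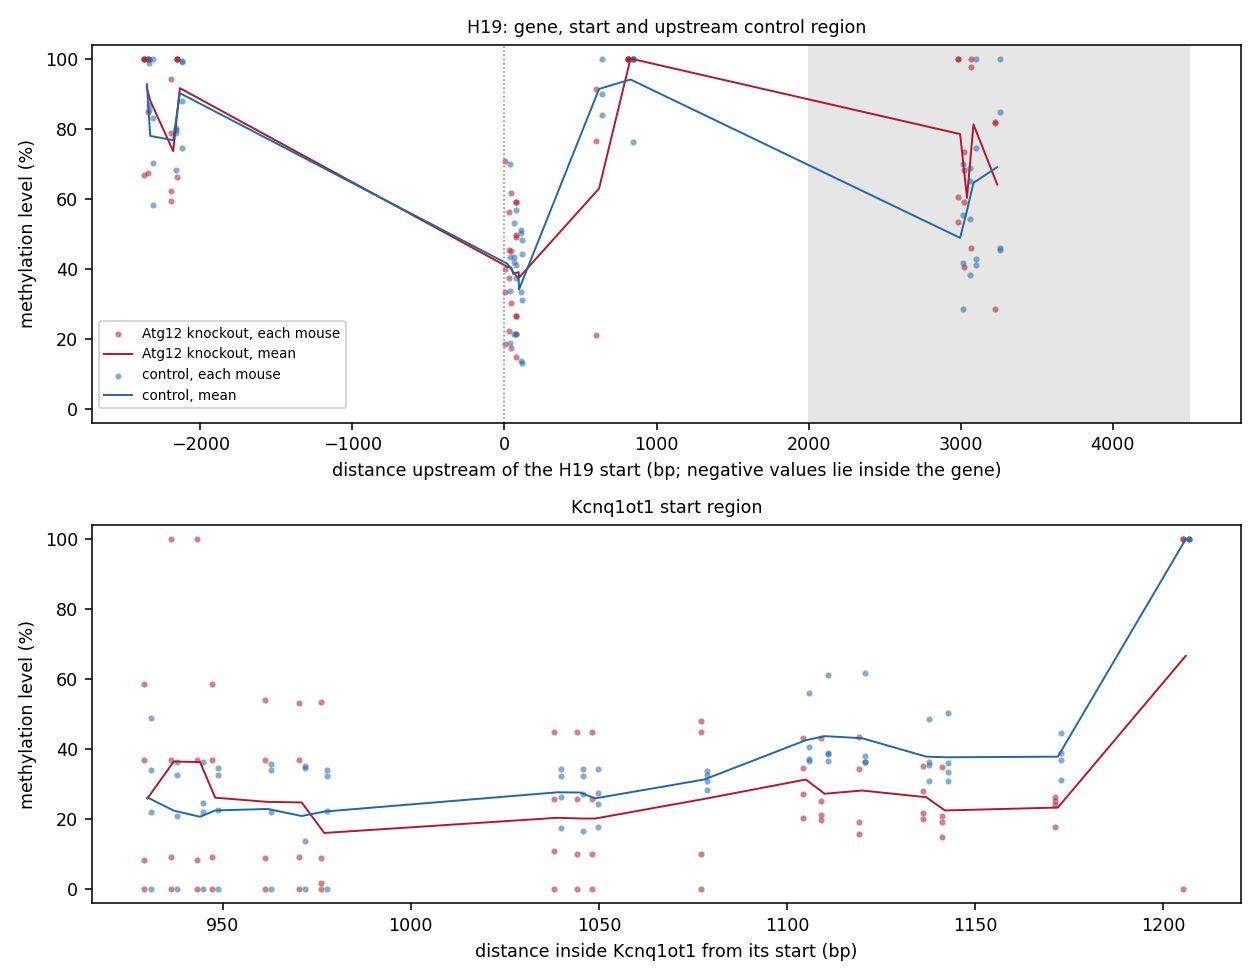
Methylation level (%) of each CpG by distance (bp) around the H19 start, with the upstream control region shaded, and inside the Kcnq1ot1 start region. Each point is 1 mouse with 10 or more reads, the points of the groups are set slightly apart, and lines join group means; the CpGs nearest the H19 start lie near 40% in both groups, and the Kcnq1ot1 CpGs from 1105 to 1172 bp lie lower in knockouts.

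Igf2, a growth factor expressed from the paternal chromosome, was unmethylated over most of the CpGs measured. Of the 179 CpGs in its body, 152 had a mean level under 5%, 8 lay at 30 to 70% and 1 was over 95%. Over the 155 covered in every mouse, knockouts averaged 2.48 ± 0.306% and controls 2.44 ± 0.254% (SD, n = 4 each). Around the start whose upstream sequence is printed above, 34 CpGs within 500 bp averaged 1.67 ± 0.790% in knockouts and 1.38 ± 0.501% in controls. The 8 capitalized CpGs of that sequence averaged 0.833 ± 0.507% in knockouts and 1.01 ± 0.495% in controls. A second start at chr7:142661271 had 9 such CpGs, at 3.24 ± 2.47% in knockouts and 1.21 ± 1.26% in controls. The start at chr7:142657496 differed from these, with 2 CpGs at 73.0 ± 11.7% in knockouts and 75.0 ± 10.7% in controls. At the start farthest upstream, chr7:142666816, no CpG within 500 bp was covered in every mouse. In the upstream flank, which overlaps the flank of Ins2 but not that gene, 7 CpGs stood at 96.9 ± 0.477% in knockouts and 96.8 ± 1.14% in controls.

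Intermediate levels within Igf2 were confined to a few short stretches among the CpGs measured, and one of these held the smallest window p of the cluster. In the 1 kb window at chr7:142665001-142666000, in the part of the body nearest the most upstream start, 5 CpGs were summed. The level was 35.3, 40.3, 43.7 and 43.8% in knockouts 25, 28, 45 and 46, against 49.5, 55.5, 64.2 and 82.0% in controls 1, 34, 36 and 37. Every knockout was below every control, at 40.8 ± 3.96% in knockouts and 62.8 ± 14.1% in controls (SD, n = 4 each). The difference was -22.0 points, with p = 0.0210 and an adjusted p of 0.724 in the quasi-binomial model moderated by limma. Within the window, the CpG at chr7:142665343 differed most between the groups, at 31.0, 4.17, 62.7 and 37.7% in knockouts and 63.6, 100, 89.3 and 100% in controls, on 17 to 88 reads. Its adjusted p was 0.763 in the same model, and its neighbour at chr7:142665589 averaged 34.5 ± 32.7% in knockouts and 53.8 ± 9.39% in controls (adjusted p = 0.766 in that model). At a minimum of 20 reads, neither the window nor the CpG at chr7:142665343 was among those tested. In the window at chr7:142655001-142656000, 3 CpGs on few reads gave 78.9, 1.28, 98.8 and 68.4% in knockouts and 43.3, 51.5, 48.3 and 67.4% in controls. The range over the knockouts there, where knockout 28 was nearly unmethylated and knockout 45 nearly fully methylated, was wider than the difference between the group means (adjusted p = 0.867 in the same model).

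The start region of Kcnq1ot1, a long noncoding RNA that silences its neighbours on the paternal chromosome, was measured at more CpGs and at greater depth. From 500 bp before the annotated start to 2000 bp inside the gene, 18 CpGs met the rule, between chr7:143295341 and chr7:143295618, and 17 had 10 or more reads in all 8 mice. With 2238 to 5039 reads summed in a mouse, the level was 15.0, 32.2, 34.3 and 20% in knockouts 25, 28, 45 and 46, against 47.2, 25.9, 33.5 and 35.2% in controls 1, 34, 36 and 37. Knockouts averaged 25.4 ± 9.34% and controls 35.5 ± 8.79% (SD, n = 4 each). Knockouts 25 and 46 lay below every control, control 1 lay above every other mouse, and the remaining mice of both groups overlapped between 25.9 and 35.2%. The difference of -10.1 points had a 95% interval of -32.1 to 8.35 points and an exact two-sided permutation p of 0.171. In the quasi-binomial model with limma the unadjusted p was 0.0381 and the adjusted p was 0.737. The difference was -9.82 points without both knockout 25 and control 34, -6.65 points without knockout 25 alone, -6.19 points without control 1, and -4.54 points when CpGs were weighted equally in place of by reads.

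The 17 CpGs of the Kcnq1ot1 region fell into short runs in which neighbours had nearly the same level in a given mouse. From 143295570 to 143295617, 7 CpGs were at 0% in knockout 25 and in control 34, on 97 to 99 and on 135 to 137 reads, and 6 of them were at 36.8% in knockout 28. From 143295498 to 143295508, 3 CpGs were at 0% in knockout 28 and at 45% in knockout 45. CpGs so close together can lie on the same reads, and they are not independent measurements. The lower knockout values lay in the deepest run, from 143295375 to 143295442, at 157 to 1027 reads. The CpG at chr7:143295405 had the smallest p of all CpGs of the domains, at 15.0, 34.9, 19.2 and 21% in knockouts and 50.2, 30.9, 36.1 and 33.6% in controls (p = 0.00231, adjusted p = 0.7, quasi-binomial model with limma). Knockout 28 was above 2 controls there. The CpG at chr7:143295375, singled out after its values were seen, was the only one of the region with no overlap, at 23.3 ± 3.81% in knockouts and 37.9 ± 5.56% in controls (adjusted p = 0.763 in that model). Of the 18 CpGs, 13 were lower and 5 higher in knockouts on average, and 5 reached an unadjusted p under 0.05, all of them lower in knockouts, against 4.12% of CpGs on all autosomes that were lower at that p. The lowest and highest means over the mice were at chr7:143295570 with 16.1 ± 25.3% in knockouts and 22.2 ± 15.7% in controls, and at chr7:143295341. The CpG at 143295341 had only 10 to 25 reads and none in knockout 25 or control 1, and was at 0, 100 and 100% in the 3 other knockouts and at 100% in the 3 other controls.

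Both control regions were compared within each mouse. The H19 region was more methylated than the Kcnq1ot1 region in 8 of 8 mice, by 29.0 ± 14.9 points (SD, n = 8), with a range of 6.53 to 47.8 points. An exact two-sided sign-flip permutation test over the mice gave p = 0.00781, the smallest it can give. The comparison sets 2 CpGs against 17.

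Kcnq1, which encodes a potassium channel subunit, had an unmethylated start and a mostly methylated body. Its 49 start CpGs were at 3.59 ± 1.12% in knockouts and 3.35 ± 0.798% in controls (SD, n = 4 each), and 36 of them had a mean under 5%. In its body, apart from Kcnq1ot1, 96 CpGs covered in every mouse averaged 76.1 ± 5.19% in knockouts and 78.7 ± 5.81% in controls (adjusted p = 0.891, quasi-binomial model with limma). Of the 131 body CpGs by the rule, 58 were over 95%, 43 were at 70 to 95%, 11 were at 30 to 70% and 12 were under 5%. The CpG at chr7:143328638 was at 87.5, 91.9, 82.6 and 87.0% in knockouts and at 96.2, 100, 98.7 and 96.2% in controls, on 120 to 620 reads. Every knockout was below every control there, by 10.5 points on average (p = 0.00578, adjusted p = 0.739, quasi-binomial model with limma). The downstream flank held 11 CpGs at 95.3 ± 0.892% in knockouts and 93.6 ± 3.47% in controls. Within Kcnq1ot1 and away from its start, 4 CpGs stood at 90.6 ± 7.12% in knockouts and 94.1 ± 3.05% in controls (adjusted p = 0.885 in that model). The difference of -3.46 points was -0.09 points without knockout 46, which stood at 80.5%.

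Cdkn1c, the maternally expressed gene for p57, was measured densely, and its levels were intermediate over the start, the body and the upstream flank. It lies outside the control region and acquires paternal methylation during development. At 34 start CpGs, with 8567 to 13279 reads summed, the level was 25, 27.9, 34.2 and 24.2% in knockouts 25, 28, 45 and 46, against 32.2, 28.3, 31.6 and 35.9% in controls 1, 34, 36 and 37. Knockouts averaged 27.8 ± 4.55% and controls 32.0 ± 3.11% (SD, n = 4 each). Knockouts 25, 28 and 46 lay below every control, but knockout 45 lay among the controls. The difference was -4.20 points (p = 0.0616, adjusted p = 0.773, quasi-binomial model with limma).

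In the Cdkn1c body the groups overlapped more. Over 50 CpGs, with 14442 to 17890 reads summed, the level was 20.4, 26.5, 32.3 and 24.8% in knockouts and 31.7, 21.9, 32.1 and 33.6% in controls, which gave 26.0 ± 4.95% in knockouts and 29.8 ± 5.35% in controls. Control 34 stood apart from the other controls. Controls 1, 34 and 36 lay within the range of the knockouts, and control 37 lay above it. The difference was -3.82 points, with an adjusted p of 0.847 in the same model, and it was -1.95 points without knockout 25 and -6.46 points without control 34. In the upstream flank, 23 CpGs averaged 23.4 ± 3.92% in knockouts and 26.5 ± 2.63% in controls (adjusted p = 0.836 in that model), again with knockout 25 lowest among knockouts and control 34 lowest among controls. The difference of -3.10 points was -1.32 points without knockout 25. Its CpG at chr7:143465104 was at 0, 5.64, 11.8 and 15.4% in knockouts and at 23.6, 12.1, 19.9 and 35.3% in controls, on 285 to 600 reads. Only control 34 lay within the range of the knockouts there (p = 0.00802, adjusted p = 0.739, quasi-binomial model with limma).

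**Figure D3:**
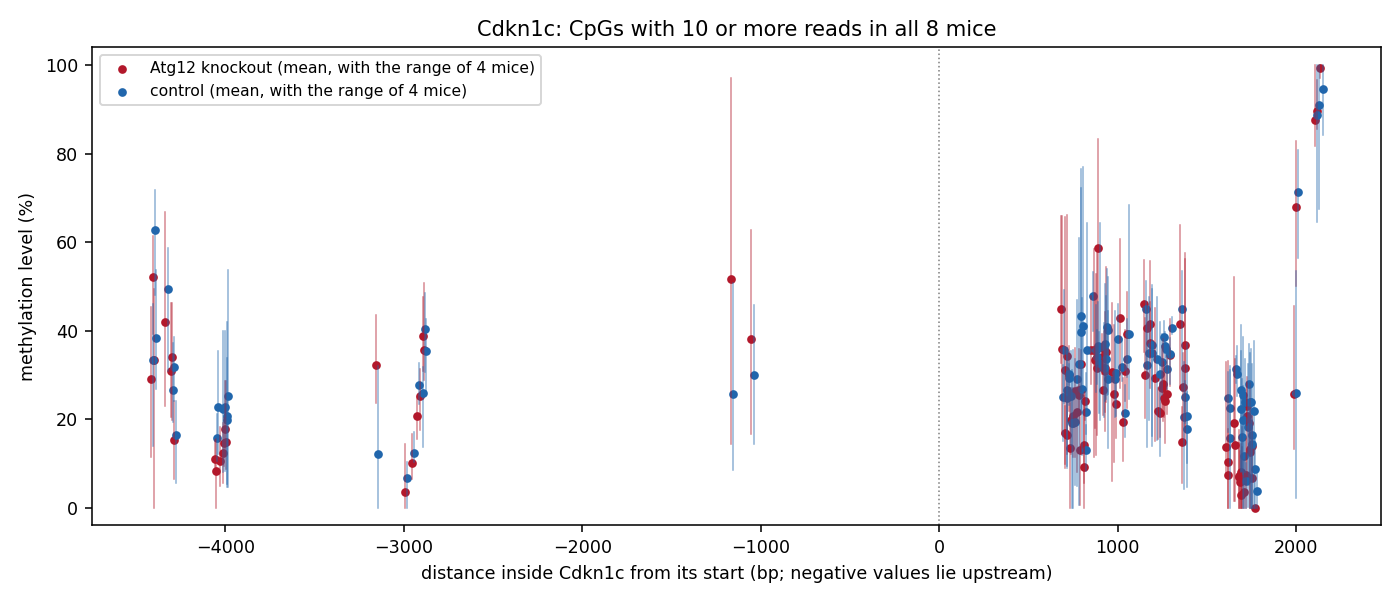
Methylation level (%) of each Cdkn1c CpG covered in all 8 mice by its distance (bp) from the start, shown as the mean of each group with the range of its 4 mice, with the groups set slightly apart. Most CpGs lie between 0 and 50% with overlapping ranges, and the few farthest into the body are close to fully methylated in both groups.

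Along Cdkn1c, levels changed with position in both groups. The 1 kb window at chr7:143458001-143459000, at the end of the gene, stood at 92.1 ± 2.68% in knockouts and 91.2 ± 13.2% in controls. The window at chr7:143459001-143460000, in the body, had 43 CpGs and stood at 18.1, 23.6, 29.0 and 20.5% in knockouts and 29.9, 20.6, 31.1 and 32.4% in controls (p = 0.0448, adjusted p = 0.751, quasi-binomial model with limma). The window at chr7:143460001-143461000, which holds the rest of the body and much of the start, had 38 CpGs at 28.1 ± 3.77% in knockouts and 31.9 ± 3.04% in controls (p = 0.0589, adjusted p = 0.772, quasi-binomial model with limma). In the window at 143459001 only control 34 lay within the range of the knockouts, and without it and knockout 25 the difference was -6.77 points. In the window at 143460001 knockouts 28 and 45 lay within the range of the controls, and controls 1, 34 and 36 lay within that of the knockouts. Of 82 body CpGs by the rule, 55 were lower and 26 higher in knockouts. Of the 78 body CpGs tested, 10 reached an unadjusted p under 0.05, all lower in knockouts, against the same 4.12% of CpGs on all autosomes. Neighbouring CpGs of this gene can lie on the same reads, as in the Kcnq1ot1 region.

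Phlda2, a maternally expressed gene that restrains placental growth, was nearly unmethylated at every measured CpG of its body and at all but 1 of its start. Of 28 start CpGs, 27 had a mean under 5%. The 13 covered in every mouse averaged 0.729 ± 0.808% in knockouts and 1.70 ± 1.65% in controls (SD, n = 4 each), and 11 body CpGs averaged 0.936 ± 0.694% in knockouts and 2.19 ± 2.23% in controls. The groups overlapped at both, with knockout 28 at 0% in each. In the downstream flank, 3 CpGs on 131 to 240 reads summed in a mouse stood at 27.0 ± 11.9% in knockouts and 31.4 ± 6.71% in controls. These 3 were not alike, with 1 at 88.2% over the mice and the other two under 5%. The difference of -4.38 points turned to 1.07 points without knockout 28, 1.87 points at a minimum of 20 reads and 0.88 points with CpGs weighted equally.

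No comparison of the domains passed adjustment. Among 1 kb windows with a mean level of 5 to 95%, 20 held CpGs of the domains, and 0 of them had an adjusted p under 0.05, as for 0% of all 39903 windows. The smallest adjusted p was 0.724. At an unadjusted p under 0.05 there were 3 windows, all lower in knockouts, against 6.50% of all windows, of which 4.40% were lower and 2.10% higher. The 3 were the Igf2 window at 142665001, the Kcnq1ot1 window at 143295001 and the Cdkn1c window at 143459001, and without overlap between the groups only the Igf2 window stood, against 3.48% of all windows, 2.00% lower and 1.48% higher. The other tests of the same windows, edgeR's quasi-likelihood test and limma on log2 ratios, called 0 windows after adjustment, with 1511 and 1922 of all windows and segments at an unadjusted p under 0.05. The median difference was -2.50 points over the 20 windows and -0.26 points over all windows.

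Single CpGs gave a like account. Of 298 tested CpGs of the domains, 0 had an adjusted p under 0.05, against 0.00735% (23 CpGs) of all 313039, and the smallest adjusted p was 0.7. At an unadjusted p under 0.05 there were 24 CpGs, 23 lower and 1 higher in knockouts, against 6.52% of all CpGs, with 4.12% lower and 2.40% higher. The groups did not overlap at 11 CpGs, 10 lower and 1 higher in knockouts, against 3.11% of all CpGs, with 1.54% lower and 1.57% higher. On average over the mice 193 CpGs were lower and 105 higher in knockouts, against 168067 lower and 144841 higher over all CpGs. The median difference was -3.39 points against -0.90 points over all CpGs. On the Kcnq1 side 172 CpGs were lower and 82 higher in knockouts, with a median of -4.58 points. Of these 254 tested CpGs, 78 lay in the Cdkn1c body, 47 at its start and 23 in its upstream flank. Neighbours there can lie on the same reads and are not independent measurements. On the H19-Igf2 side 21 were lower and 23 higher, with a median of 0.68 points. Whether the clusters differ from each other or from other regions was not tested.

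Mice differed within each genotype in a way that ran through most intermediate segments. A coverage ratio was computed in each mouse as the median reads at CpGs at 95% or more in every mouse over the median reads at CpGs at 5% or less in every mouse. It was 0.242, 0.365, 0.396 and 0.323 in knockouts 25, 28, 45 and 46, and 0.554, 0.176, 0.509 and 0.358 in controls 1, 34, 36 and 37. Knockouts averaged 0.332 ± 0.0665 and controls 0.399 ± 0.171 (SD, n = 4 each). Knockout 25 and control 34, which had the lowest ratios of their groups, were the lowest mouse in 7 of 9 segments with a mean level of 20 to 80%, and they were the 2 lowest mice in 4 of them. The level of the Kcnq1ot1 region tended to be higher where the ratio was higher over the 8 mice, with Pearson's r of 0.784 (exact permutation p = 0.0234, Benjamini-Hochberg adjusted over 2 relations 0.0467) and Spearman's rho of 0.762 (exact permutation p = 0.0368, adjusted 0.0735). Without control 1 and control 34, the mice farthest from the median ratio, r was 0.756. The adjusted p passed 0.05 narrowly, and it did so in 5 of 14 alternatives. Among these 5, a minimum of 20 reads and leaving out the most deeply covered CpGs kept the same CpGs. Both repeated the main result and add no separate check. Leaving out 1 mouse ended the call for knockouts 25, 28, 45 and 46 and for controls 1 and 37, with r of 0.748, 0.787, 0.783 and 0.81 for these knockouts and 0.637 and 0.805 for these controls. Without both knockout 25 and control 34 r was 0.773 (exact permutation p = 0.0431, adjusted 0.0861). For the H19 region r was 0.490 (exact permutation p = 0.216, adjusted 0.216) and rho was 0.429 (exact permutation p = 0.299, adjusted 0.299), and without the same 2 mice r was 0.153. No correlation was computed within a genotype, which holds 4 mice. The part of the coverage ratio in the differences between genotypes was not tested.

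**Figure D4:**
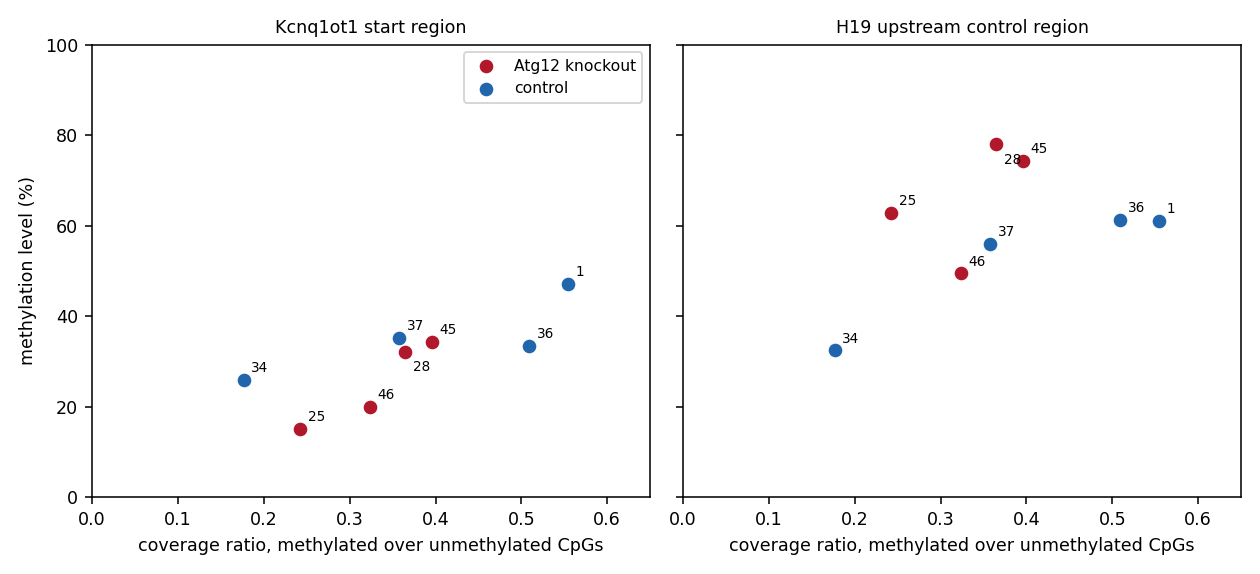
Methylation level (%) of each control region against the coverage ratio, with 1 point for each mouse, labelled by its number. In the Kcnq1ot1 panel the mice run from knockout 25 at 15.0% to control 1 at 47.2%; in the H19 panel control 34 is lowest at 32.5% and the other mice show no order by ratio.

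Other genes were measured by the CpGs within 1000 bp of their start, to place these levels. Of 16 neighbours on distal chromosome 7, 8 could be measured; 7 had a mean level under 5%, and Nctc1 was at 95 ± 2.15% in knockouts and 92.9 ± 3.90% in controls (SD, n = 4 each). Of 13 genes known for setting or protecting imprints, 9 could be measured; 8 were under 5%, and Dnmt3l was at 85.3 ± 10.4% in knockouts and 84.5 ± 10.1% in controls. None of the 3 windows of the neighbours and the 2 of the maintenance genes had an adjusted p under 0.05, with 0 of them at an unadjusted p under 0.05 in the quasi-binomial model with limma.

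Among 18 other imprinted genes, 14 could be measured and 7 had start levels of 30 to 70%, namely Peg3, Nnat, Plagl1, Airn, Nap1l5, Zrsr1 and Meg3. The median over these 7 was 29.9, 39.6, 49.0 and 35.7% in knockouts 25, 28, 45 and 46, and 43.7, 28, 41.4 and 45.8% in controls 1, 34, 36 and 37. Knockout 25 and control 34 were the lowest mice of their groups, as at the H19 start, and 1 of them was lowest at 6 of the 7 genes. Over the starts of all 14 measured genes, not only these 7, 19 windows were tested and 0 passed adjustment. Of the 19, 2 lower and 1 higher in knockouts had an unadjusted p under 0.05 in the same model. Over all windows these shares were 4.40% lower and 2.10% higher.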

How the data were processed

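Enhanced reduced representation bisulfite sequencing was done by the submitters on sorted HSC DNA of 4 Atg12 knockout and 4 control mice, with a size selection changed for low DNA input, per the labels' protocols. The submitters' processing notes name CASAVA 1.8.2, Bismark and mm10. How reads were filtered, and whether duplicates were removed, is not stated there. Coverage was deposited as the count of reads at a cytosine, only for cytosines with at least 10 reads. The authors' methylation values are a percent of reads showing C, and a percent showing T, per the file headers. Methylated reads were recovered as coverage times percent, rounded to whole reads, and both strands of a CpG were added.

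The segments and windows used CpGs with 10 or more reads in all 8 mice, and single CpGs those with at least 3 mice of each group. Windows were 1000 bp with at least 3 CpGs. Features with a mean level of 5 to 95% entered a quasi-binomial logistic model on genotype, with overdispersion moderated by limma's squeezeVar (version 3.58.1, R 4.3.3) with a lower bound of 1, and Benjamini-Hochberg adjustment over all windows and segments, or over all CpGs. The model was also run on simulated reads, whose outcome is not reported here and is not used as support. Levels of the control regions were compared by exact permutation tests over all arrangements, with 95% intervals from the inverted test. These were computed in Python 3.11.15 with NumPy 2.4.6, and the main correlation coefficients with SciPy 1.17.1. Alternatives were edgeR 4.0.16, limma on log2 ratios with 1 read added, other coverage and level filters, shifted windows and leaving out mice.

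The members, gene lists and tests were chosen with earlier results of these data known. Named windows were those over a control region and the 3 of smallest p in each cluster; no tested window lay over the H19 control region. Named CpGs were those of lowest and highest mean level in each control region and the 3 of smallest p in each cluster.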

Additional observations from a re-analysis of the deposited data

Results flagged for a closer look

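Of 34 groups of 4 mice, 2 for each of 17 segments, 2 had a mouse far from the other three by Dixon's criterion, which chance alone meets in about 1 of 20 groups. Both were control 34 at Cdkn1c. In the Cdkn1c body control 34 stood at 21.9%, against 31.7% in the next control and 33.6% in the highest. In the Cdkn1c upstream flank control 34 stood at 22.6%, against 27.4% in the next control and 28.3% in the highest. The same mouse had the lowest coverage ratio, 0.176, and its part in these values was not tested.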

How the results depend on the processing

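No paired analysis was possible because the mouse numbers are not shared between knockouts and controls. The differences at the control regions kept their direction in every alternative, and none reached 0.05. For H19 they ran from 6.75 to 19.1 points (exact permutation p 0.0857 to 0.4). For Kcnq1ot1 they ran from -13.3 to -4.54 points (exact permutation p 0.143 to 0.629). Without both knockout 25 and control 34, too few mice were left for the permutation test to reach 0.05. A minimum of 20 reads, or leaving out the most deeply covered CpGs, kept the same CpGs in both regions and repeated the main values. The difference between the regions within mice was 26.3 to 33.1 points. Pearson's r between the Kcnq1ot1 level and the coverage ratio passed 0.05 after adjustment over 2 relations in 5 of 14 alternatives. Those 5 include the same repeats of the main values, at a minimum of 20 reads and without the most deeply covered CpGs. Pearson's r was 0.637 to 0.865 with 1 mouse left out. The call was lost at 0.691 (adjusted exact permutation p = 0.112) when CpG levels were averaged, at 0.773 (0.0861) without both knockout 25 and control 34, and at 0.73 (0.0796) with means in place of medians in the ratio, an alternative chosen after seeing the data. Over all autosomes, windows with an adjusted p under 0.05 numbered 0 to 29 with 1 mouse left out, 9 without knockout 45 and 29 without control 34, and 8 without both knockout 25 and control 34. Such CpGs numbered 1 without the most deeply covered CpGs, 40 at a minimum of 20 reads, 0 by limma on log2 ratios (15727 at an unadjusted p under 0.05), 0 in every fit that left out 1 mouse and 0 without both mice. The cause was not tested. None of the named windows and CpGs passed adjustment in any alternative. For the 15 segments outside the control regions, 20 of 195 alternative differences had the opposite sign, at 6 segments (the H19 start and body, the Igf2 body and upstream flank, the Kcnq1 start and the Phlda2 downstream flank), and 3 moved by more than the SD between mice. Without knockout 45 the window at 142575001 in the H19 body was at -0.70 points, against up to 8.54 with another mouse left out, and the Igf2 window at 142655001 at -3.11 points. The CpG at 142581187 in the H19 control region was at -0.74 points without knockout 28, against up to 10.2 with another mouse left out, -2.47 without control 34 and -5.08 without both knockout 25 and control 34. The H19 control region rests on 2 CpGs, and the interval of its difference ran from -11.8 to 45.5 points.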
